A study of Homo sapiens with 15 samples.

Results

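The 12 genes described here had next to no counted reads in vehicle-treated PATU-8988T cells and were counted after 24 h of the CDK7 inhibitor THZ1; for 4 of them, low values may be reads left uncounted, as given below. They were chosen from the measured values: protein-coding genes with a mean below 0.5 CPM (the gene's count divided by the library's total count, times 1000000) in the DMSO libraries and of at least 5 CPM in the THZ1 24 h libraries, with a span under 500000 bases, leaving out histone genes and ARC. Of 58676 genes measured, 19821 were protein-coding, and 8137 of those lay under the DMSO limit. Both levels were met by 14 genes; ARC (22.0 CPM after THZ1 for 24 h and 0.164 CPM in DMSO) and HIST1H2BG (6.73 CPM after THZ1 for 24 h and 0.0652 CPM in DMSO) were left out by name, and none by span. The 12 are RRAD, CXCL3, NOP2, CHMP4A, RHOH, EGR4, SNX32, FRMD1, APOBEC3D, CLN3, KIF25 and FAM166A. Since the 24 h THZ1 and DMSO values chose them, the contrast between those groups is given below as a description, without a test.

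PATU-8988T is an established human pancreatic cancer line. Total RNA was sequenced in 15 libraries, 3 each from cells treated with 100 nM THZ1 for 24 h, 100 nM THZ1 for 4 h, 100 nM YKL-5-124 for 24 h, 100 nM YKL-5-124 for 4 h, or 0.1% DMSO. The labels give no time for DMSO, so the same 3 libraries are the controls for both times, and they do not say whether replicates were separate cultures, so the p-values measure the spread between these libraries, which may be technical. All groups were grown in DMEM with fetal bovine serum.

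CDK7 is the kinase of the transcription factor TFIIH. It phosphorylates the tail of RNA polymerase II as transcription starts and also activates the cell-cycle kinases. THZ1 and YKL-5-124 bind CDK7 covalently, and THZ1 also binds CDK12 and CDK13, which act on the elongating polymerase. Immediate-early genes such as the EGR family, and chemokines such as CXCL3, are kept low in resting cells and are induced within minutes to hours by growth signals, stress or inflammation.

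The library totals ran from 15567057 to 22869590 counts. The THZ1 24 h libraries stood apart: their TMM factors, which rescale library totals so that most genes match, were 0.532 to 0.559, against 1.147 to 1.267 in DMSO, and the median log2 fold change of all 14461 tested genes was -1.49 with library totals and -0.37 with TMM. A gene's share of a library could therefore rise while most other genes fell, and a change in RNA per cell cannot be told apart from a change in cell number or makeup in such bulk samples. Of 8 epithelial markers, KRT8, KRT18 and EPCAM averaged at least 1 CPM in every group; KRT7 and CDH1 did so after THZ1 for 24 h and in no other group, SOX9 did so in DMSO and both YKL-5-124 groups and not after THZ1, and MUC1 in none. VIM, ZEB1, CDH2 and FN1 were all detected, KRT19 was near 0, and acinar and islet markers were at or near 0.

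The sequences around the transcript starts are shown first. RefSeq promoter windows (GRCh38.p14, 250 bases before to 50 after the start) matched 8 of the 12 genes by symbol; RRAD, SNX32, APOBEC3D and FAM166A were not matched. CXCL3 and EGR4 are printed because they carry a kappa-B motif, the sequence bound by the inflammatory factor NF-kappa-B, and capitals mark it. The CXCL3 window is chr4:74038640-74038939 and the EGR4 window chr2:73293499-73293798, both on the minus strand.
CXCL3: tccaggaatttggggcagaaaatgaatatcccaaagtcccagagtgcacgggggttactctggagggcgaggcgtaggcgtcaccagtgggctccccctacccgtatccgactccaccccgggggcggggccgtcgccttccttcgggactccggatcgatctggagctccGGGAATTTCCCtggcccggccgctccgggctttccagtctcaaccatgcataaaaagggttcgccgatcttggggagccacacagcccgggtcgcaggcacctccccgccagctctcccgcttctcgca
EGR4: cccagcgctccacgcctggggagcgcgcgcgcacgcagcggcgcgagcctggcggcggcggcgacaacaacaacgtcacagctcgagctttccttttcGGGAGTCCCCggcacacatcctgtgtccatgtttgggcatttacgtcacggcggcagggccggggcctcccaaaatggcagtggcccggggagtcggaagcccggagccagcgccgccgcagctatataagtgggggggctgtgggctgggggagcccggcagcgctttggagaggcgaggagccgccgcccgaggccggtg
In CXCL3 the motif stood at -79 to -70 on the gene's strand, with an overlapping match on the other strand at -78 to -69. In EGR4 it stood at -152 to -143. For both genes the deposited start lies upstream of the RefSeq one, so the motif lies inside the gene in the deposited coordinates. The motif, searched for on both strands after the data had been seen, was in 2 of 8 matched windows and in 5.91% of 34796 RefSeq windows. Neither TATAAA (11.6% of windows), TGACGTCA (1.84%), TGAGTCA (4.96%), the heat shock element (0.491%) nor the CArG box (1.30%) was found in any of the 8 windows, on either strand. The median GC content was 61.3% in the 8 windows and 58.7% in all.

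FRMD1 and KIF25 are neighbours on chromosome 6 that point towards each other, and their windows are printed because each repeats a short word 5 times. Capitals mark the most frequent 12-base word. The FRMD1 window is chr6:168075786-168076085 on the minus strand, the KIF25 window chr6:167997421-167997720 on the plus strand, and both lie inside the genes as deposited.
FRMD1: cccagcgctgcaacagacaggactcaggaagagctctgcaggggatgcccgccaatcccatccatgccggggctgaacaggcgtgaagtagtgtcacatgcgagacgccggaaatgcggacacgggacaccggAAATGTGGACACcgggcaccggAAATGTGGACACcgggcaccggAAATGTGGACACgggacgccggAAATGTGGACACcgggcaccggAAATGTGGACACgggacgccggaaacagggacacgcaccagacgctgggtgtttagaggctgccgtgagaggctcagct
KIF25: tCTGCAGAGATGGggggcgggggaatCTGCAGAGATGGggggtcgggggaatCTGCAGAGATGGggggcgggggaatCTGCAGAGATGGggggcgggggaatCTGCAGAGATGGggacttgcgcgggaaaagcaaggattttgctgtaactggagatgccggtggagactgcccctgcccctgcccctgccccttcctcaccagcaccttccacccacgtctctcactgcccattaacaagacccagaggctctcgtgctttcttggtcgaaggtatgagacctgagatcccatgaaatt
A 12-base word in 4 or more copies that do not overlap was present in 0.828% of all windows, and in none of the other 6 matched members. This feature was noticed in the sequences before it was counted, so its share is a description.

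EGR4 and CXCL3 are the members known as signal-induced genes. EGR4 (chromosome 2, 73290929 to 73293705, minus strand) encodes a zinc-finger transcription factor of the EGR family. It had 8.03, 8.17 and 10.1 CPM after THZ1 for 24 h, against 0.102, 0.0979 and 0.146 CPM in DMSO. Its counts summed to 447 after THZ1 for 24 h and to 7 in DMSO, a ratio of CPM-scaled sums of 76.1 (exact binomial 95% interval 36.6 to 190.4, covering counting error only). CXCL3 (chromosome 4, 74036589 to 74038807, minus strand) encodes a neutrophil-attracting chemokine. Its levels were 16.2, 10.7 and 11.3 CPM after THZ1 for 24 h, against 0.407, 0.343 and 0.439 CPM in DMSO, a ratio of 31.7 (21.1 to 49.9). These groups did not overlap for either gene, which the choice of genes by their values largely fixed. CXCL3 is a close copy of CXCL1 and CXCL2, so its counts are uncertain wherever the counting split or dropped shared reads.

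The relatives of these genes had values of their own. EGR1 averaged 213 ± 96.4 CPM after THZ1 for 24 h and 1.73 ± 0.615 CPM in DMSO (SD, n = 3 each). EGR2 averaged 1.28 CPM after THZ1 for 24 h and 0.0487 CPM in DMSO, and EGR3 averaged 0.151 CPM after THZ1 for 24 h with no count in DMSO. CXCL1 averaged 3.18 CPM after THZ1 for 24 h and 0.462 CPM in DMSO, while CXCL2 averaged 3.31 CPM after THZ1 for 24 h and 2.92 CPM in DMSO. These are shares of library totals. With TMM factors both were called higher, CXCL1 by a log2 fold change of 3.88 ± 0.56 and CXCL2 by 1.29 ± 0.37 (SE, edgeR). All these relatives were measured in the same libraries and were outside the rule's limits.

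RRAD and RHOH encode atypical small GTPases. RRAD (chromosome 16, 66921679 to 66925644, minus strand), which in muscle and heart restrains voltage-gated calcium channels, had 21.0, 10.4 and 11.1 CPM after THZ1 for 24 h, against 0.407, 0.539 and 0.536 CPM in DMSO. The ratio was 28.1 (19.5 to 41.9), and replicate 1 held about as much as the other two THZ1 24 h libraries together. Its DMSO mean of 0.494 CPM was the closest to the limit of 0.5. RHOH (chromosome 4, 40191053 to 40246967, plus strand) is known from blood cells, and its protein does not hydrolyse GTP. It had 12.4, 6.96 and 8.40 CPM after THZ1 for 24 h and no count in any DMSO library. Against a floor of 3 counts over the DMSO group it was at least 184-fold higher. Since RHOH is a blood-cell gene, the immune markers stand beside it: the summed level of 6 was 0.514 to 1.49 CPM in THZ1 24 h libraries and 0.0980 to 0.195 CPM in DMSO libraries, with CD3E, CD68 and MS4A1 at 0 in both groups. In the YKL-5-124 libraries, where RHOH had no count, the sum was 0.324 to 5.50 CPM at 24 h and 0.266 to 0.700 CPM at 4 h. After THZ1 for 4 h it was 0.0460 to 0.138 CPM. The part of these markers in the RHOH values was not tested.

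KIF25 and FRMD1, the neighbours with repeat-bearing windows, were both near 0 outside THZ1 24 h. KIF25 (chromosome 6, 167996241 to 168045089, plus strand) encodes a kinesin motor protein. It had 5.46, 5.80 and 6.24 CPM after THZ1 for 24 h, against 0.0509, 0.0490 and 0.0975 CPM in DMSO, a ratio of 88.5 (34.2 to 326.9). FRMD1 (chromosome 6, 168055745 to 168081557, minus strand), which encodes a FERM-domain protein, had 7.07, 6.18 and 10.0 CPM after THZ1 for 24 h and no count in the other 12 libraries. It was at least 156.5-fold higher than DMSO at the same floor. KIF25 was the steadiest member, with a coefficient of variation of 6.69% among the THZ1 24 h libraries, and RRAD the most variable at 41.8%. The antisense RNA KIF25-AS1, which shares 207 bases with KIF25 exons, averaged 0.785 CPM after THZ1 for 24 h and had no count in DMSO. Reads of the pair cannot be told apart without strand.

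NOP2, CHMP4A, APOBEC3D and CLN3 have roles in RNA modification, membranes, virus restriction and lysosomes, and each shares exon sequence with another gene on its own strand. NOP2 (chromosome 12, 6556863 to 6568691, minus strand) encodes a nucleolar RNA methyltransferase, and had 12.2, 9.94 and 8.05 CPM after THZ1 for 24 h, against 0, 0.294 and 0.195 CPM in DMSO. CHMP4A (chromosome 14, 24209583 to 24213869, minus strand) encodes a subunit of the membrane-cutting ESCRT-III complex, and had 10.0, 8.83 and 10.4 CPM after THZ1 for 24 h, against 0.102, 0.147 and 0.0487 CPM in DMSO. The ratios, whose direction the choice of genes fixed, were 60.6 (32.7 to 127) for NOP2 and 98.1 (44.8 to 268.7) for CHMP4A. APOBEC3D (chromosome 22, 39014363 to 39033276, plus strand) encodes a cytidine deaminase that acts on retroviral DNA, and had 8.80, 5.41 and 5.36 CPM after THZ1 for 24 h, against 0.204, 0.245 and 0.487 CPM in DMSO. CLN3 (chromosome 16, 28477279 to 28495575, minus strand) encodes a lysosomal membrane protein mutated in juvenile Batten disease, and had 8.22, 4.64 and 5.25 CPM after THZ1 for 24 h, against 0, 0 and 0.0975 CPM in DMSO. The ratio was 20.5 (12.9 to 34.5) for APOBEC3D and 180 (49.4 to 1493) for CLN3, the last resting on 2 DMSO counts.

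In GENCODE release 29, AL022318.4 covered 83.2% of the exonic bases of APOBEC3D, AL136419.6 covered 68.8% of those of CHMP4A, AC006064.6 covered 54.4% of those of NOP2, and RP11-435I10.4 covered 25.2% of those of CLN3. All but AL136419.6 had 0 counts in all 15 libraries, and AL136419.6 averaged 0.0961 CPM after THZ1 for 24 h and 0.0325 CPM in DMSO. Exons shared by at least 50% on the same strand occurred in 3 of the 12 members, in 0.778% of the 12212 protein-coding genes tested, and in 21 of the 539 tested protein-coding genes under the DMSO limit (3.90%). CLN3 had 9858 exonic bases in release 29 but a deposited exonic length of 4495 bases, so its share of the counted exons is not known. No source used here says how the counting treated a read lying in both genes. A low value of these 4 genes in any group therefore cannot be told apart from reads left uncounted, and their ratios hold only for the reads that were counted. APOBEC3D also lies partly within the span of APOBEC3C on the same strand (5990 bases, no exonic base shared), which averaged 11.7 CPM after THZ1 for 24 h and 19.9 CPM in DMSO.

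**Figure D1:**
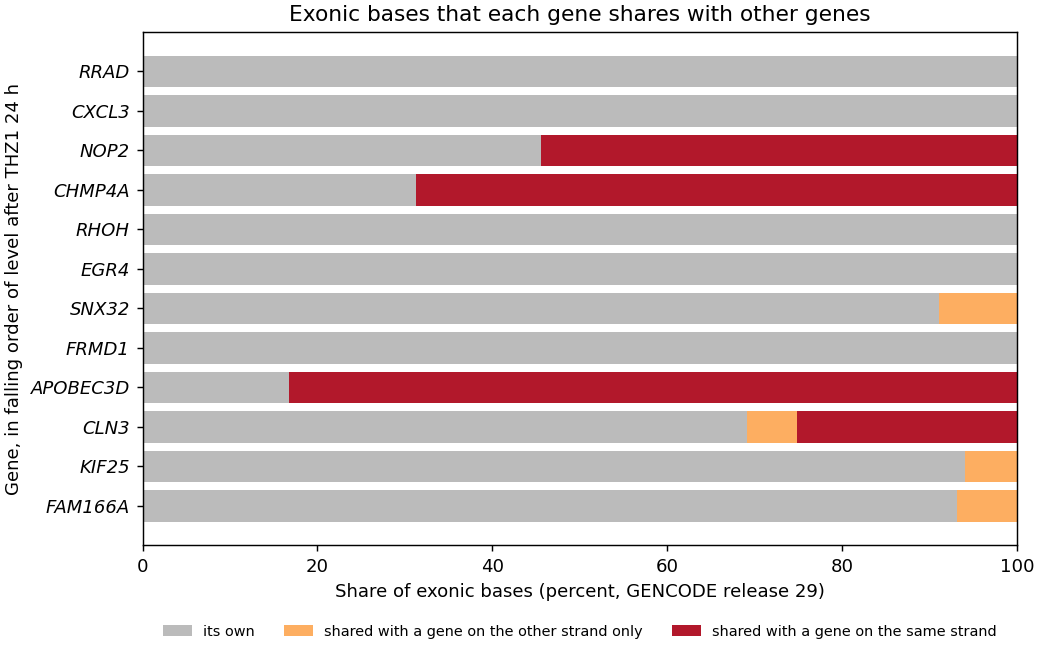
Share of each member's exonic bases (percent, GENCODE release 29) that is its own, shared only with a gene on the other strand, or shared with a gene on the same strand, with the genes in falling order of their THZ1 24 h level. NOP2, CHMP4A and APOBEC3D share between 54.4% and 83.2% on the same strand, CLN3 shares 25.2%, and RRAD, CXCL3, RHOH, EGR4 and FRMD1 share none. For CLN3 the deposited exonic length was 4495 bases, against 9858 in release 29, so its share of the counted exons is not known.

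SNX32 and FAM166A are the members whose exons overlap a strongly expressed gene (at least 10 CPM), in both cases on the other strand. SNX32 (chromosome 11, 65833641 to 65856896, plus strand), which encodes an endosomal sorting nexin, lies within the span of CFL1, the gene of the actin-severing protein cofilin, and shares 357 exonic bases with it (9.002% of its own). SNX32 had 6.04, 10.2 and 10.1 CPM after THZ1 for 24 h, against 0.204, 0.294 and 0.146 CPM in DMSO, and CFL1 averaged 2323 ± 26.4 CPM after THZ1 for 24 h and 813 ± 69.4 CPM in DMSO (SD, n = 3 each). SNX32 stood at 0.379 ± 0.105% of CFL1 after THZ1 for 24 h and 0.0270 ± 0.0117% in DMSO. The ratios of these groups did not overlap, which the choice of SNX32 by its own values there largely fixed. FAM166A (chromosome 9, 137243584 to 137247770, minus strand), which encodes a protein of ciliary microtubules, shares 124 bases (6.89%) with the tubulin gene TUBB4B at their 3′ ends. Its levels were 4.18, 5.85 and 5.36 CPM after THZ1 for 24 h, against 0, 0.0979 and 0.0975 CPM in DMSO. TUBB4B was lower after THZ1, averaging 133.9 ± 19.98 CPM after THZ1 for 24 h and 966 ± 18.6 CPM in DMSO. The ratio to DMSO was 41.4 (24.0 to 78.4) for SNX32 and 78.4 (30.3 to 289.8) for FAM166A. Reads of each overlapping pair cannot be told apart without strand, and the strand setting is not stated in the labels.

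**Figure D2:**
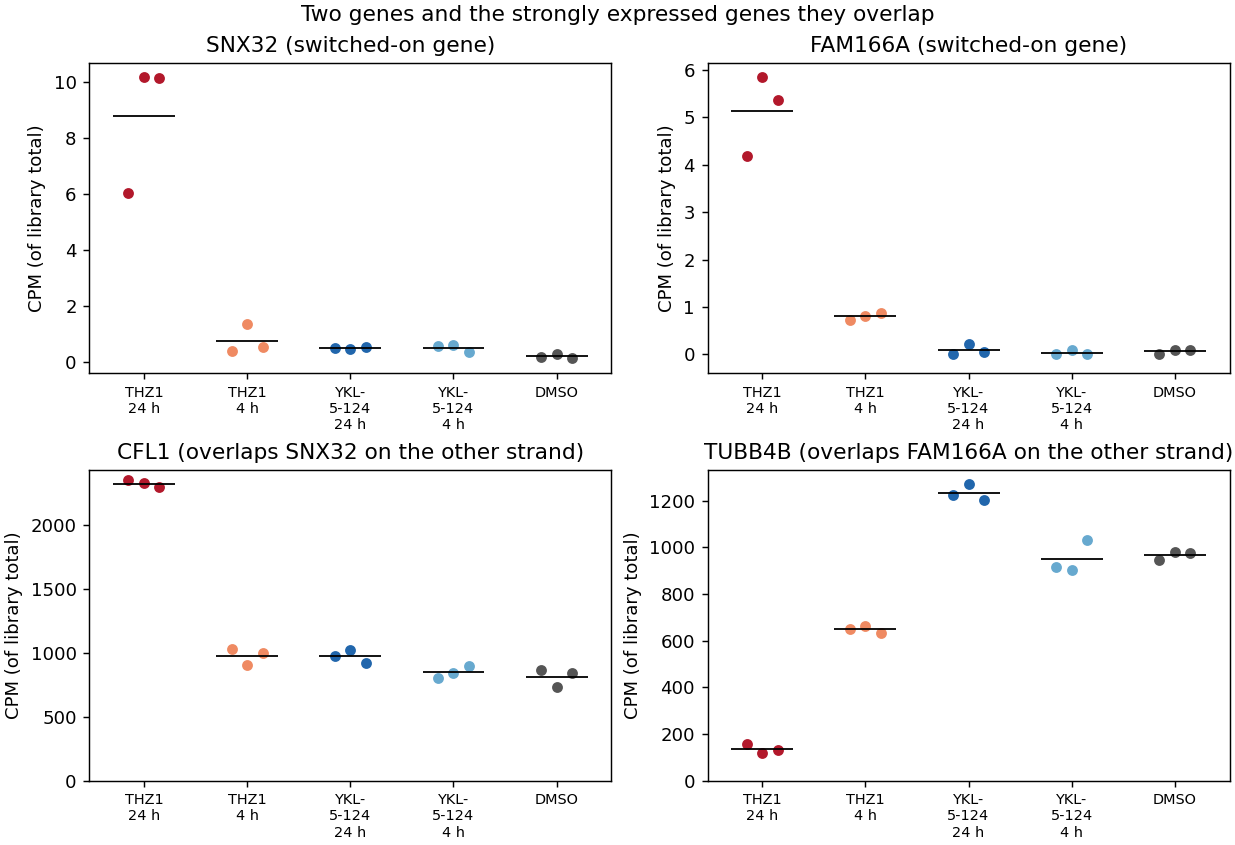
Levels (CPM of the library total, linear axes) of SNX32 and FAM166A above, and of the strongly expressed genes they overlap, CFL1 and TUBB4B, below, in the 15 libraries. Points are libraries and lines group means; CFL1 is highest after THZ1 for 24 h, whereas TUBB4B is lowest there, at a mean of 133.9 CPM against 966 CPM in DMSO.

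Other strongly expressed genes lay upstream on the same strand without sharing exons. RRAD starts 6.41 kb downstream of FAM96B and stood at 4.09 ± 1.29% of its level after THZ1 for 24 h, against 0.331 ± 0.0755% in DMSO. CHMP4A starts 2.98 kb downstream of NEDD8, and stood at 9.53 ± 1.91% of its level after THZ1 for 24 h, against 0.212 ± 0.118% in DMSO. The direction of both differences was largely fixed by the choice of RRAD and CHMP4A by their own values. The median gap to such an upstream gene was 78455 bases for the 12 members and 158075 bases for tested protein-coding genes. The members were also shorter, with a median span of 15063 bases, against 33718 bases for tested protein-coding genes, and a median exonic length of 2671 bases, against 5137.5 bases. These medians are descriptions of 12 chosen genes. The rule limited their span to under 500000 bases, while the tested protein-coding genes were limited neither in span nor by their DMSO level.

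**Figure D3:**
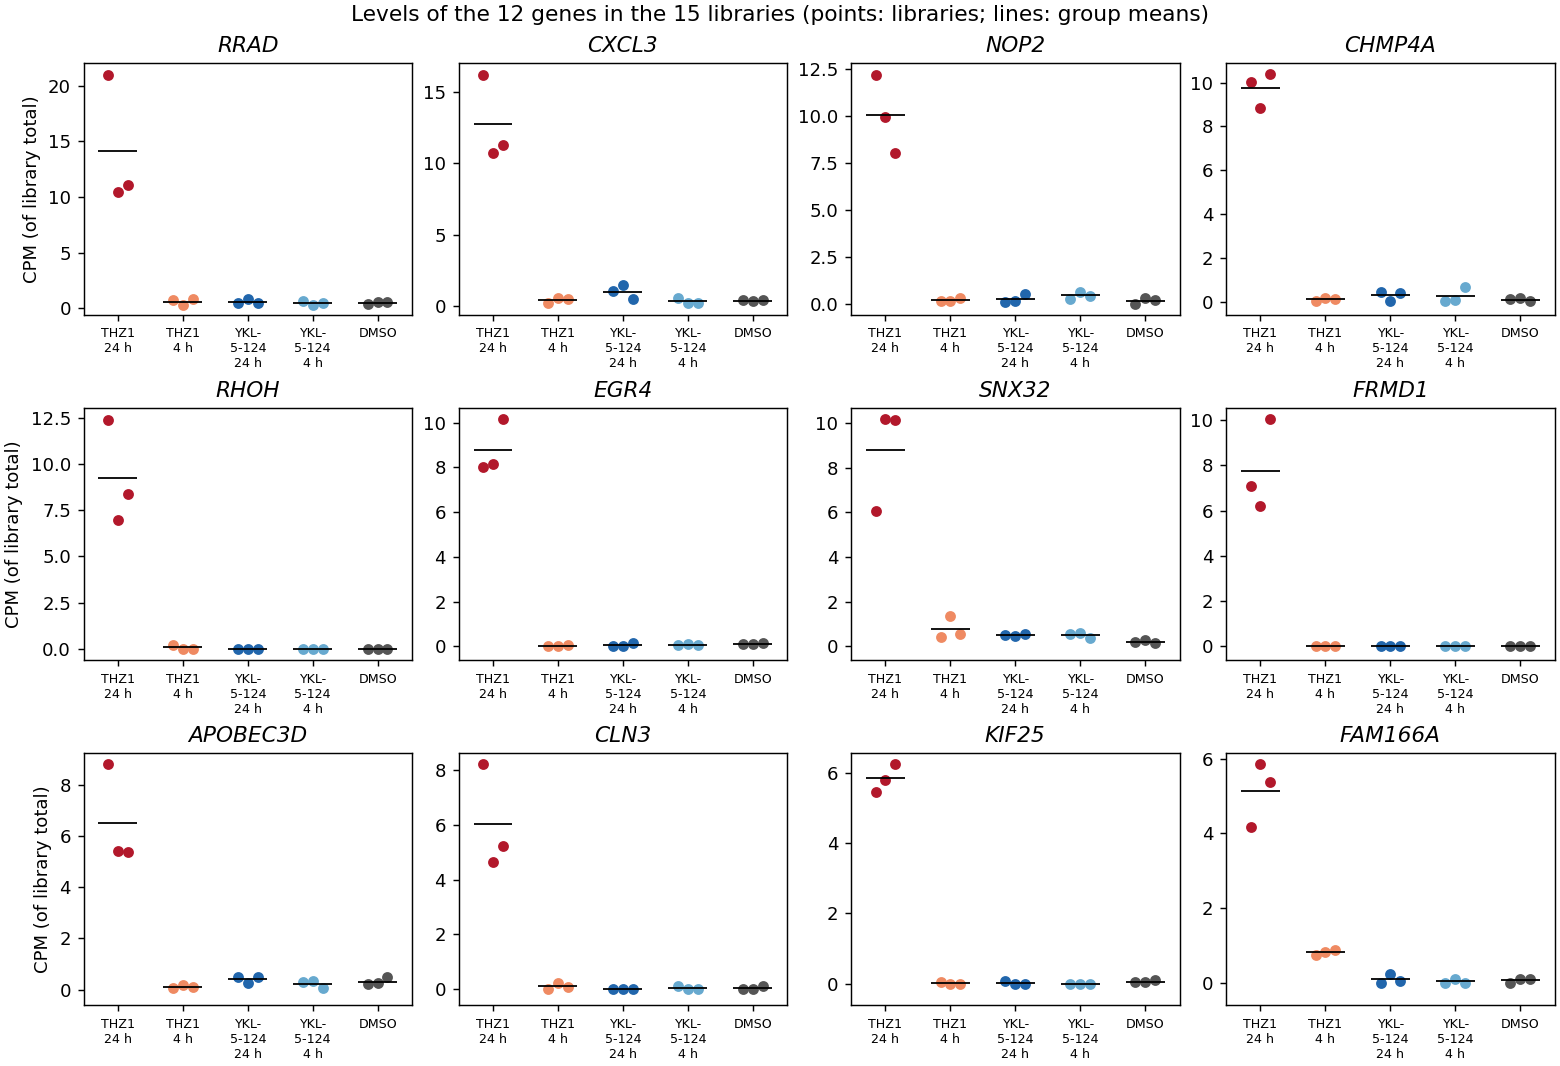
Levels (CPM of the library total, linear axes that differ between panels) of the 12 genes in each library, with points for libraries and lines for group means. The 3 THZ1 24 h libraries, whose values chose the genes, lie above all others in each panel, and the highest value in any other library is 1.46 CPM (CXCL3 in YKL-5-124 24 h).

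Across the study, the THZ1 24 h libraries were above all others for each member, which the choice of genes by those libraries largely fixed; against DMSO, edgeR called 32.3% of all tested genes higher and 44% lower after THZ1 for 24 h, and nothing is read from the members' separation. The closest approaches were a factor of 4.46 over THZ1 4 h (SNX32), 7.35 over YKL-5-124 24 h (CXCL3), 9.86 over YKL-5-124 4 h (SNX32) and 11.0 over DMSO (APOBEC3D). The median of the 12 mean levels was 8.78 CPM after THZ1 for 24 h, 0.108 CPM after THZ1 for 4 h, 0.169 CPM after YKL-5-124 for 24 h, 0.157 CPM after YKL-5-124 for 4 h and 0.107 CPM in DMSO. Per kb of exon in the deposited table, the THZ1 24 h levels ran from 8.29 CPM per kb for RRAD and 5.73 CPM per kb for CXCL3 down to 1.34 CPM per kb for CLN3 and FRMD1. Within the THZ1 24 h group, replicate 1 was highest for RRAD, CXCL3, NOP2, RHOH, APOBEC3D and CLN3 and lowest for EGR4, SNX32, KIF25 and FAM166A, so the libraries did not differ by one common factor.

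The same limits, applied to the other groups, were met by 0 protein-coding genes after THZ1 for 4 h, 0 after YKL-5-124 for 4 h and 3 after YKL-5-124 for 24 h (HIST2H4A, PIPOX and SRGN), none of them a member. The opposite pattern, at least 5 CPM in DMSO and under 0.5 CPM in the treated group, was met by 208 protein-coding genes after THZ1 for 24 h and by 40 after THZ1 for 4 h. With these library totals the median log2 fold change of all tested genes after THZ1 for 24 h was -1.49, which favours falls over rises. With TMM-scaled library sizes 26 genes met the rule, and the opposite pattern was not counted, so the numbers of genes in the 2 directions cannot be compared. At the edges of the rule, FAM166A (5.13 CPM) and KIF25 (5.83 CPM) lay just inside the THZ1 24 h limit, and P2RX5-TAX1BP3 (4.63 CPM) and RP11-286N22.8 (4.49 CPM) just outside. Above the DMSO limit, MC5R (5.73 CPM after THZ1 for 24 h and 0.513 CPM in DMSO) and FCRLB (71.2 CPM after THZ1 for 24 h and 0.644 CPM in DMSO) came next after RRAD and CXCL3.

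At 4 h the compounds were compared at the same dose between libraries that did not choose the genes. The fit pooled the spread over all 15 libraries, and 8 members passed the filter on low counts only through other groups: in a fit of the 4 h groups alone, RRAD, CXCL3, SNX32 and FAM166A were tested (4 of 12). FAM166A was the member called in both fits, with 0.736, 0.812 and 0.874 CPM after THZ1 and 0, 0.0875 and 0 CPM after YKL-5-124. These are 16, 15 and 19 counts after THZ1 against 0, 2 and 0 after YKL-5-124, and the libraries did not overlap. The log2 fold change was 4.67 ± 0.77 (SE, edgeR quasi-likelihood, adjusted p = 0.0002408, adjusted p over the alternatives 1.96e-10 to 0.00176), 4.67 in the fit of the 4 h groups alone (adjusted p = 0.00166), and 7.08 without YKL-5-124 4 h replicate 2, which held both of that group's counts. Of the 12 members 1 was called higher, against 11.4% of all tested genes, and 0 lower, against 21.9%, shares with which the members, near 0 by choice, cannot be fairly compared. DESeq2 also called 1 higher and 0 lower, and 0 were lower at an unadjusted p under 0.05. FAM166A stood at 0.125 ± 0.0125% of TUBB4B after THZ1 for 4 h and at 0.00323 ± 0.00560% after YKL-5-124 for 4 h, while TUBB4B itself averaged 649 CPM after THZ1 and 949 CPM after YKL-5-124.

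The other members gave no call between the compounds at 4 h. SNX32 had 0.414, 1.35 and 0.552 CPM after THZ1 and 0.576, 0.612 and 0.370 CPM after YKL-5-124, and the groups overlapped. Its log2 fold change was 0.76 (95% interval -0.11 to 1.62, edgeR adjusted p = 0.1673). RRAD (0.57, interval -0.41 to 1.55) and CXCL3 (0.59, interval -0.54 to 1.73) also had intervals that span 0. RHOH had 5 counts after THZ1 for 4 h, all in replicate 1, and none after YKL-5-124. At under 1 CPM a gene had few reads in these libraries, and the intervals are wide. That of KIF25 ran from -1.03 to 4.83, on 1 count after THZ1 and 0 after YKL-5-124. KIF25 passed the filter on low counts only through THZ1 24 h, the group that chose it, so nothing is read from its interval.

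Between the YKL-5-124 times, edgeR called 0 of 12 members higher at 24 h than at 4 h, against 9.22% of all tested genes, and 0 lower, against 11.9%; fitted alone, these groups left 3 members past the filter (RRAD, CXCL3 and SNX32), with 0 called. CXCL3 came nearest, with 1.04, 1.46 and 0.490 CPM at 24 h and 0.576, 0.219 and 0.211 CPM at 4 h, and the groups overlapped. Its log2 fold change was 1.37 ± 0.48 (edgeR adjusted p = 0.05331, unadjusted p = 0.01156), and CXCL3 was the 1 member higher at an unadjusted p under 0.05, with 0 lower. DESeq2 called it, 1 higher and 0 lower, and edgeR called it without YKL-5-124 24 h replicate 3 (1.71) or without YKL-5-124 4 h replicate 1 (2.03). RHOH and FRMD1 had no count in any YKL-5-124 library, and CLN3 had 2, both at 4 h.

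Against DMSO, whose low values the rule required, the earlier and the other-compound groups are described only, and nothing is read from the counts of calls. After THZ1 for 4 h edgeR called 2 of 12 members higher, against 16.9% of all tested genes, and 0 lower, against 25.1%: FAM166A by a log2 fold change of 3.74 ± 0.69 and SNX32 by 2.04 ± 0.47 (SE). Both overlap a strongly expressed gene, and both held the most counts of the 12 after THZ1 for 4 h (50 for FAM166A and 46 for SNX32). The part of either in these calls was not tested. SNX32 had 0.414, 1.35 and 0.552 CPM after THZ1 for 4 h and 0.204, 0.294 and 0.146 CPM in DMSO, and without THZ1 4 h replicate 2 its fold change was 1.43. YKL-5-124 for 4 h gave 0 members higher (0.0553% of all tested genes) and 0 lower (0.463%), and YKL-5-124 for 24 h gave 0 higher (8.92%) and 0 lower (12.7%). At an unadjusted p under 0.05, 1 was higher in each, SNX32 at 4 h and CXCL3 at 24 h, and 1 was lower, KIF25 at 4 h. KIF25 had 0 counts after YKL-5-124 for 4 h and 4 in DMSO, so nothing is read from its difference. It passed the filter on low counts only through THZ1 24 h (297 counts), the group that chose it. DESeq2 called 0 higher at 4 h and 1 higher at 24 h. After THZ1 for 24 h the fitted log2 fold changes of the 10 members with a count in DMSO ran from 5.48 ± 0.44 for APOBEC3D to 8.37 ± 0.76 for CLN3.

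At 24 h THZ1 and YKL-5-124 had the same dose. The ratio of THZ1 24 h to YKL-5-124 24 h was lowest for CXCL3, at 12.6 (9.63 to 16.7), and reached 173.2 (58.9 to 843.1) for EGR4. RHOH, FRMD1 and CLN3, without a count after YKL-5-124 for 24 h, were at least 179-fold, 152.7-fold and 117-fold higher after THZ1. Between the THZ1 times, the ratio of 24 h to 4 h was lowest for FAM166A, at 6.41 (4.72 to 8.86), and for SNX32, at 11.97 (8.83 to 16.6). These ratios use the libraries that chose the members and carry no test.

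EGR4 and CXCL3 belong to wider classes of inducible genes, whose other genes the rule did not pick. Of 26 immediate-early transcription factors, 22 besides EGR4 were tested: 13 rose and 5 fell after THZ1 for 24 h against DMSO, beside 32.3% and 44% of all tested genes, with a median log2 fold change of 1.17, against -0.37 over all tested genes. FOS averaged 195 ± 14.4 CPM after THZ1 for 24 h and 1.98 ± 0.886 CPM in DMSO, and JUNB averaged 276 ± 23.4 CPM after THZ1 for 24 h and 6.55 ± 0.818 CPM in DMSO (SD, n = 3 each). With library totals the 22 divided into 9 higher and 10 lower (15.7% and 64.9% of all tested genes) with a median of 0.05, against -1.49 over all. With RLE or upper-quartile factors they divided into 16 higher and 3 lower. The shares of all tested genes were then 37.7% and 37.8% with RLE factors, and 38.8% and 36.6% with upper-quartile factors. At 4 h, 1 of the 22 rose and 13 fell in THZ1 against YKL-5-124 (median -1.13), beside 11.4% and 21.9% of all tested genes. In YKL-5-124 16 rose and 0 fell at 24 h against 4 h (median 0.93), beside 9.22% and 11.9%. EGR4 was called in neither of these. It held 1 count after THZ1 for 4 h, 5 after YKL-5-124 for 4 h and 3 after YKL-5-124 for 24 h. It passed the filter on low counts only through THZ1 24 h (447 counts), the group that chose it. Nothing is therefore read from its missing calls.

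Of 28 cytokines and chemokines, 11 besides CXCL3 were tested. The filter on low counts used all 15 libraries. A gene near 0 in the other groups could thus be tested through THZ1 24 h alone, and could then only rise there. This holds for each gene list, and how many listed genes it concerned was not counted. After THZ1 for 24 h 6 rose and 2 fell against DMSO (median 1.29), beside 32.3% and 44% of all tested genes. With library totals 3 rose and 3 fell (median 0.17), beside 15.7% and 64.9%. TNF (log2 fold change 4.18 ± 0.69, adjusted p = 5.119e-05) and CXCL1 (3.88 ± 0.56, adjusted p = 1.367e-05) were among those that rose. YKL-5-124 gave 4 higher and 0 lower at 24 h against 4 h, beside 9.22% and 11.9% of all tested genes. In THZ1 against YKL-5-124 at 4 h, 0 higher and 1 lower were called, beside 11.4% and 21.9%.

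Lists without a member gave mixed counts after THZ1 for 24 h against DMSO, to be read beside 32.3% higher and 44% lower of all tested genes, or 15.7% and 64.9% with library totals. The limit set by the filter weighs most where few of the listed genes were tested. Of 27 listed genes for secreted growth factors, hormones and neuropeptides 8 were tested. Of these 6 rose and 2 fell (4 and 2 with library totals), and the neuropeptide precursor gene VGF was among those that rose (log2 fold change 5.38 ± 0.44, edgeR adjusted p = 2.041e-08). Of 26 listed neuronal and synaptic genes 5 were tested, and 4 rose and 0 fell (3 and 0 with library totals). The neuronal markers SNAP25, SYT1, STMN2 and RBFOX3 summed to 0 to 0.0583 CPM after THZ1 for 24 h and 0.204 to 0.245 CPM in DMSO. Of 34 listed cancer-testis and germ cell genes 1 was tested, and it rose (0 with library totals). The germ cell markers DDX4 and DAZL had no count in either group. Heat-inducible chaperones gave 3 higher and 8 lower of 16 (2 and 13 with library totals), with HSPB1 higher (2.99 ± 0.18) and HSPA8 lower (-4.01 ± 0.21). Targets of p53 gave 7 higher and 12 lower of 20 (3 and 15 with library totals). Of 22 listed keratins and other genes of hair and cornified epithelium 2 were tested, 1 higher and 1 lower (0 and 1 with library totals).

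**Figure D4:**
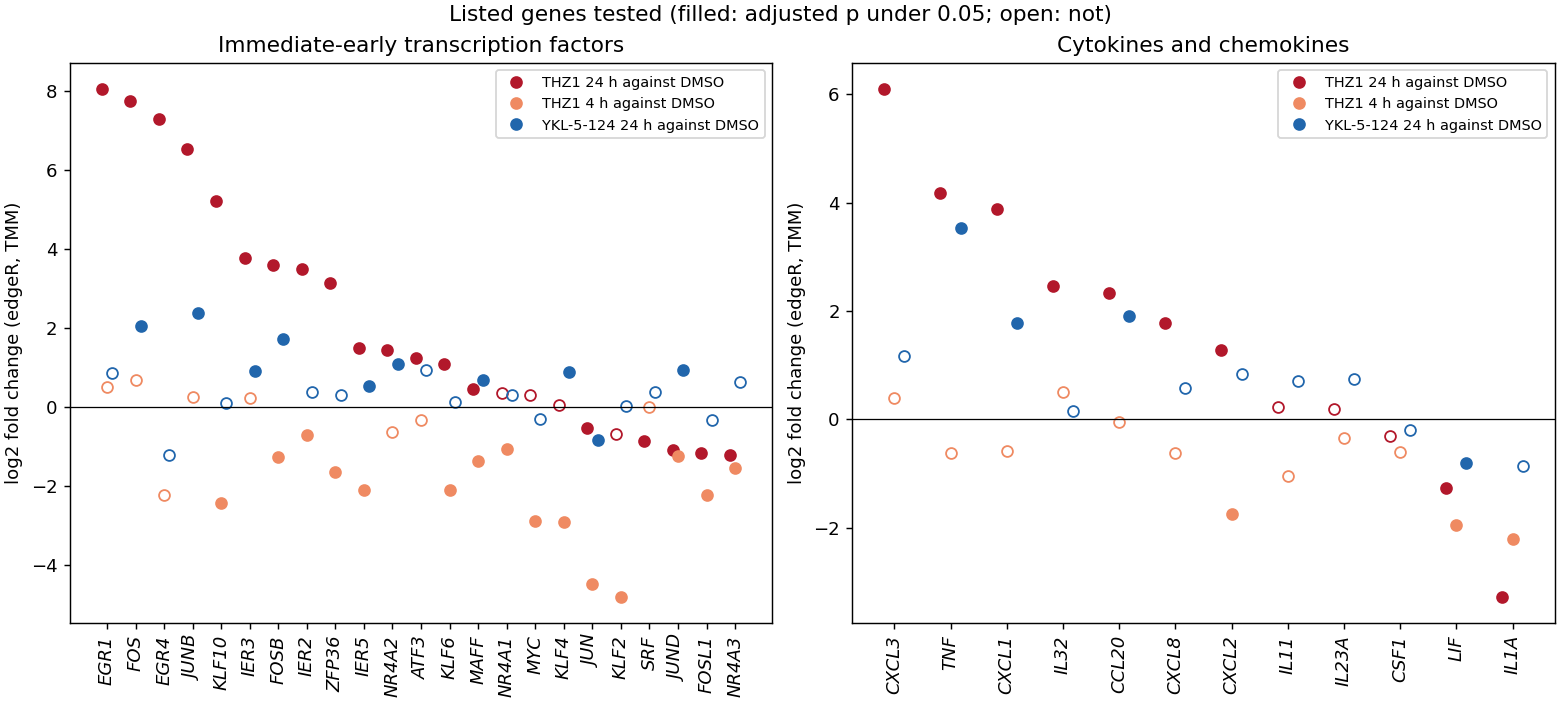
Fitted log2 fold change (edgeR with TMM factors) of each tested gene of the immediate-early list, left, and of the cytokine and chemokine list, right, for THZ1 24 h, THZ1 4 h and YKL-5-124 24 h, each against the same DMSO libraries; filled points passed an adjusted p of 0.05. EGR4 and CXCL3 are filled in the THZ1 24 h points, whose libraries chose them, and open in the others. At left 13 genes besides EGR4 rose and 5 fell after THZ1 for 24 h, beside 32.3% and 44% of all tested genes. With library totals 9 rose and 10 fell, beside 15.7% and 64.9%.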

How the data were processed

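Total RNA from 15 PATU-8988T libraries, in 5 labelled groups of 3, was analysed. The authors deposited raw counts per Ensembl gene, with no normalization. The submitters' processing notes name GRCh38, STAR (2.6.1d), DESeq2 (1.24.0) and featureCounts (1.5.0-p3); for strand, reads in several genes and filters, the settings were not given in the sources used here. Members were selected by CPM of library totals. Counts were fitted with edgeR 4.0.16 (R 4.3.3, limma 3.58.1): filterByExpr (minimum count 10, minimum total 15), TMM factors, the quasi-likelihood test over all 15 libraries, Benjamini-Hochberg adjustment over 14461 genes and a threshold of 0.05; the fit was tested on simulated data. DESeq2 1.42.0, other scalings and filters, other limits of the rule, a replicate block and leaving out each library were alternatives. Ratios of summed counts carry exact binomial 95% intervals, which cover counting error only; with no DMSO count the floor was 3 counts over the group. Exons were taken from GENCODE release 29; the deposited start and end matched it for 9 of 12 members (not FRMD1, CLN3 or KIF25). All 12 members were named; with more than 16, values in every library would have been limited to 16. Members and gene lists were chosen with earlier results of these data known. Replicates of a group differed by more than counting noise, so none was counted as a repeat.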

Additional observations from a re-analysis of the deposited data

How the results depend on the processing

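The number of genes meeting the rule was 12, and became 9 with a DMSO limit of 0.25 CPM, 3 with a THZ1 24 h limit of 10 CPM, 26 with TMM-scaled library sizes (all 12 plus 14 others), 10 without the members overlapping a strongly expressed gene, and 11 to 13 leaving out 1 library (RRAD, CLN3 or FAM166A lost; MC5R or ICAM5 gained). Members higher in THZ1 than in YKL-5-124 at 4 h were 1, and 2 without a filter on low counts (RHOH added), and 1 to 1 leaving out 1 library. Members higher in YKL-5-124 at 24 h than at 4 h were 0, and 1 (CXCL3) with upper-quartile factors, library totals, no filter, DESeq2 or the replicate block; leaving out 1 library gave 0 to 1. Members higher in THZ1 4 h than DMSO were 2, 1 with only the groups compared, where SNX32 was not tested, and 3 without a filter on low counts (RHOH added). Members higher in YKL-5-124 24 h than DMSO were 0, and 1 (CXCL3) with no filter or DESeq2; leaving out 1 library gave 0 to 1. The causes were not tested. No result reversed. The fitted THZ1 24 h fold changes of 9 members moved by more than the spread between replicates with library totals (RRAD 4.82, CXCL3 4.98), and that of CLN3 was 10.84 without DMSO replicate 3. Replicate numbers did not pair all the samples: same-numbered libraries of THZ1 4 h and YKL-5-124 4 h had correlated deviations of 0.524, 0.364 and 0.0616, those of YKL-5-124 24 h and 4 h 0.442, -0.300 and 0.327. With DMSO the values were 0.431, 0.531 and -0.148 for THZ1 4 h and 0.532, 0.483 and -0.250 for YKL-5-124 4 h. For YKL-5-124 24 h and DMSO they were 0.378, -0.405 and -0.470. In each of these comparisons replicate 1 was closest to replicate 1, and replicate 3 to replicate 2. The block changed the call for CXCL3 alone among the counts above. Levels under 1 CPM rest on fewer than about 20 reads a library, which limits all comparisons outside THZ1 24 h.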
